A study of Saccharomyces cerevisiae with 16 samples.

Results

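The experiment described here compared budding yeast titled Taf4 anchor away with rapamycin and with DMSO, in RNA labelled as newly synthesized. Its members are the 4 of 16 array columns of the series titled Taf4 anchor away and newly-synthesized RNA: 2 with rapamycin and 2 with the vehicle DMSO. The values of 3 of these columns recur under a Taf5 title, so which subunit was tagged is uncertain for them. By their Taf4 titles all 4 came from a MATalpha W303 strain with the tor1-1 allele, FPR1 disrupted as fpr1::NAT, an anchor allele written RPL13A-2xFKB12::TRP1 and the tagged allele TAF4-FRB::HYGRO, grown in YPD at 30 °C to exponential phase, so the controls carry the tags and the tor1-1 and fpr1 alleles too. Each culture was split, 1 portion received rapamycin and the other DMSO for 30 min, and 4-thiouracil at 5 mM then labelled new RNA for 6 min. The protocol gives rapamycin at 1 µg/mL and the design text gives 5 µM. Wild-type S. pombe cells labelled the same way were mixed in at 1 part to 3 parts S. cerevisiae before extraction, and thiolated RNA was biotinylated and bound to streptavidin. Whether the 2 replicates of a group were separate cultures is not stated, so p-values measure only the spread between replicate arrays, which may be technical.

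TFIID is the general transcription factor that brings the TATA-binding protein to RNA polymerase II promoters, and Taf4 is one of its core subunits, paired with Taf12 through a histone-like fold. In the anchor-away method rapamycin bridges an FRB-tagged protein to an FKBP12-tagged ribosomal protein, which leaves the nucleus with the assembling ribosome and takes the tagged protein with it. The tor1-1 and fpr1 alleles make the cells grow in rapamycin, which otherwise blocks the TOR kinases. RNA made during a short 4-thiouracil pulse reports synthesis more directly than total RNA does, and a fixed amount of cells of another species lets levels be compared between samples even if most genes move together.

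Levels here are log2 intensities after each array was shifted to an equal median over the S. pombe probe sets, and a change on that scale is called absolute. A second scaling gave each array an equal median over the tested S. cerevisiae genes, and a change on that scale is called relative to the median gene. Both were tested with limma, 2 arrays a group, with Benjamini-Hochberg adjustment over 4359 genes and a threshold of 0.05 on the adjusted p. The spread of each gene was estimated over all 8 Taf4-labelled arrays, those labelled steady-state included. The lowest 20% of genes by level, 1090 of 5449, were left out. "Fell" and "rose" are used only for a gene that passed with all arrays and also when each of the 4 arrays was left out in turn, that is, in every fit. "Stood higher" and "stood lower" are the same for the relative scale. A gene that passed with all arrays is otherwise said to be called.

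Some features of the arrays bear on all results. Of the 4 columns, 3 recur under another label: DMSO replicate 1 and both rapamycin replicates are equal, after division by 5, to columns titled Taf5 steady-state RNA, and only DMSO replicate 2 carries 1 title. For the other 3 columns it is therefore uncertain whether the tagged subunit was Taf4 or Taf5. Their 2 titles also name different RNA fractions, so the fraction is uncertain from the titles too. No comparison of the 2 treatments in RNA labelled newly synthesized is left without these 3 columns. The Taf4-labelled steady-state columns of DMSO replicates 1 and 2 and rapamycin replicate 1 likewise equal columns titled Taf5 newly-synthesized RNA. Their tagged subunit and fraction are equally uncertain. The fraction label was checked in the DMSO arrays by setting the newly synthesized columns against the Taf4-labelled steady-state columns relative to the median gene, where 26.5% of all tested genes were called lower and 34.3% higher. Of 127 cytosolic ribosomal protein genes, whose mRNAs are known to be long-lived, 126 were higher in the columns labelled newly synthesized, with a median difference of 1.35, and glycolysis genes had a median difference of 1.02. Genes of the G2 and M phases, whose mRNAs are short-lived, had a median difference of -0.46 with 16 of 29 lower and 0 higher. These values go against the fraction label. The lists also differ in level, with DMSO medians of 12.99 and 13.03 for ribosomal protein genes and 7.45 and 7.61 for G2 and M genes. Whether the difference between the columns depends on level was not tested. Whether the labels were exchanged was not tested, and the columns are called the arrays labelled newly synthesized throughout.

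Other checks concerned the strain and the spike-in. The alpha-cell pheromone gene MF(ALPHA)1 stood at 13.06 and 13.22 with DMSO and 12.65 and 12.65 with rapamycin and the alpha-cell receptor gene STE3 at 9.68 and 9.91 with DMSO and 8.50 and 8.66 with rapamycin. The a-cell genes MFA1, MFA2, STE2, BAR1 and AGA2 lay under the level filter. The 2 arrays of a group ranked the genes alike, with Spearman coefficients across genes of 0.991 for DMSO and 0.989 for rapamycin. Of 1396 S. pombe probe sets tested, limma called 0 (0.00%) and 45 had an unadjusted p under 0.05. The arrays had been shifted to an equal median over the S. pombe probe sets, so this cannot show an error in the mixing ratio. Cells without an FRB tag given rapamycin were not analysed here, so an effect of rapamycin itself and of depleting the tagged subunit cannot be told apart.

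Most of the genome was lower with rapamycin. The median tested gene changed by -0.78 on the log2 scale, 1.72-fold lower, with a range from -2.43 to 2.41. Of 4359 genes, 3462 (79.4%) were called lower, 78 (1.79%) higher and 819 neither. 2201 genes (50.5%) fell and 39 (0.895%) rose, that is, kept their call without each array in turn. These are the shares to set beside counts of list members in every fit. Each fit with 1 array left out called fewer genes lower and fewer higher than all arrays did. A smaller list count there is therefore not by itself particular to the list. The count of higher calls was 46 without DMSO replicate 1 and 46 without rapamycin replicate 1, and the count of lower calls was smallest, 2382, without DMSO replicate 2. The array medians were 8.43 and 8.58 with DMSO and 7.70 and 7.71 with rapamycin, and the groups did not overlap. For 4180 of the tested genes (95.9%) the rapamycin and DMSO arrays did not overlap either. The exact two-sided permutation test of these medians gave p = 0.333, the smallest that 2 against 2 arrays allow. A lower signal per S. pombe signal can come from fewer S. cerevisiae cells or from less RNA per cell, and these cannot be told apart here. With the values as deposited, without the S. pombe shift, the median was -0.40, with 2114 genes lower and 188 higher. With a loess spike-in correction 2881 genes were lower and 58 higher. List counts under these 2 settings are to be read against these counts.

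Relative to the median gene, 437 genes (10.0%) were called lower and 647 (14.8%) higher. 105 genes (2.41%) stood lower and 278 (6.38%) stood higher. The counts were smallest without DMSO replicate 2, 162 lower and 337 higher, and the number of lower calls was 167, 208 and 259 without DMSO replicate 1, rapamycin replicate 1 and rapamycin replicate 2. The corresponding numbers of higher calls were 342, 378 and 389. After quantile normalization 390 genes were called lower and 399 higher. All 437 genes called lower on the relative scale were also called lower on the absolute scale. The genes called higher on the relative scale came from 3 sets: 78 were also higher in absolute level, 564 were not called in absolute level, and 5 were lower in absolute level by less than the median gene.

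**Figure D1:**
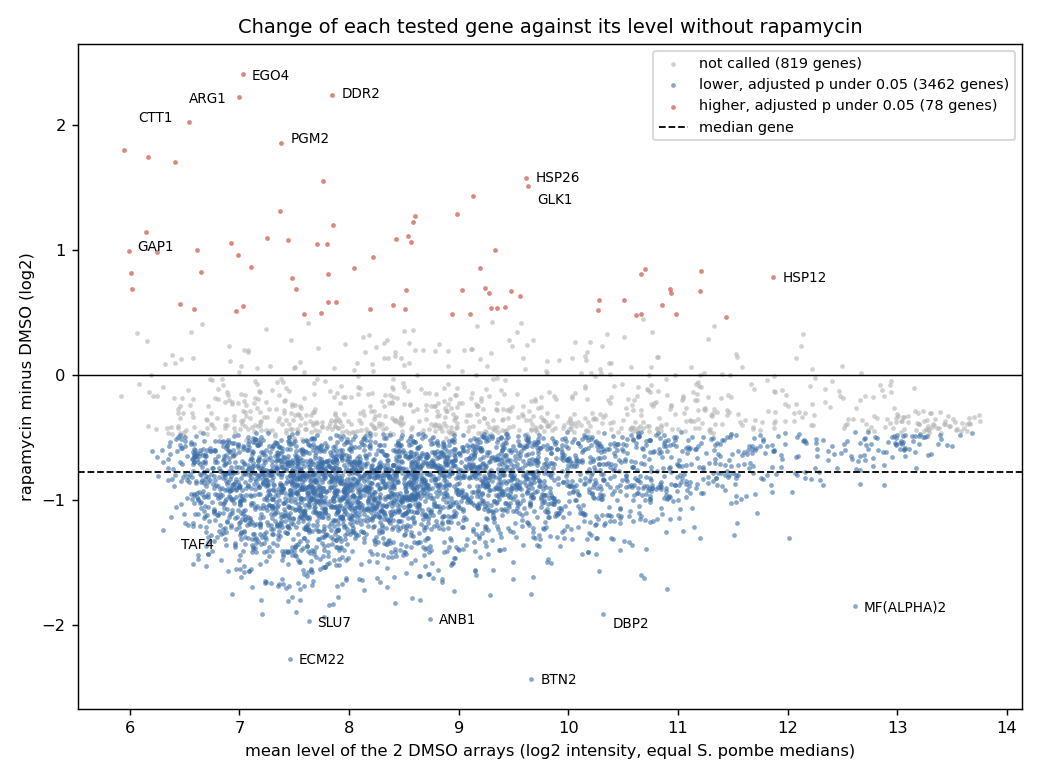
Change of each of the 4359 tested genes (rapamycin minus DMSO, log2, equal S. pombe medians) against its mean level in the 2 DMSO arrays. The dashed line marks the median gene at -0.78. Most genes lie below 0 at every level, the 78 higher genes reach from low levels up to that of HSP12, and MF(ALPHA)2 is the brightest of the labelled falls.

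Genes for the transcription machinery itself were nearly all lower, where 79.4% of all genes were called lower. TAF4, the tagged gene by the Taf4 titles, stood at 6.99 and 6.92 with DMSO and 5.40 and 5.82 with rapamycin and fell by 1.35 ± 0.22 (SE, adjusted p = 7.4e-06). The tag acts on the protein, so the level of its mRNA is no check of depletion. TAF4 was also called lower than the median gene (relative change -0.54, adjusted p = 0.0384), a call lost without DMSO replicate 1, DMSO replicate 2 or rapamycin replicate 1 (adjusted p up to 0.26). Of 8 TFIID-specific subunit genes 7 were called lower, with a median of -0.83, close to that of all genes. TAF1, the largest subunit, fell by 0.98 and TAF11 by 0.93, and TAF7 changed by -0.42 (adjusted p = 0.0852). The shared TFIID and SAGA subunit genes TAF6 and TAF9 fell by 1.00 and 0.99, and all 5 of that kind were called lower, 2 without DMSO replicate 2 and 2 without rapamycin replicate 2. TAF5 changed by -0.65 (adjusted p = 0.00742), a call lost without DMSO replicate 2 (adjusted p = 0.0656) or rapamycin replicate 2 (adjusted p = 0.0796).

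Coactivator genes were nearly all called lower, where 79.4% of all genes were. All 14 SAGA-specific genes were called lower, 10 of them in every fit against 50.5% of all genes. SGF29, a subunit of the acetylation module that reads methylated histone H3, stood at 6.70 and 7.17 with DMSO and 5.29 and 5.07 with rapamycin. It changed by -1.76 ± 0.23 (adjusted p = 4.1e-07) and stood lower than the median gene by 0.95. Mediator, which links activators to RNA polymerase II, had 19 of 20 genes lower with a median of -0.98, and ROX3 fell by 1.20. Among general transcription factors 17 of 22 were lower, 9 in every fit against 50.5% of all genes. TFB1, a TFIIH subunit, fell by 1.41. SPT15, the TATA-binding protein, stood at 10.20 and 10.36 with DMSO and 9.54 and 9.59 with rapamycin and changed by -0.71 (adjusted p = 0.00319, adjusted p = 0.0617 without DMSO replicate 2). The subunits of NC2, a repressor that binds TBP on promoters, were not called: BUR6 changed by 0.28 (adjusted p = 0.223) and NCB2 by -0.24 (adjusted p = 0.308), and they stood higher than the median gene by 1.09 and 0.57. BUR6 was at 9.57 and 9.78 with DMSO and 9.97 and 9.94 with rapamycin.

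Counts for the 3 RNA polymerases are read against the 79.4% of all genes called lower. All 12 tested genes of RNA polymerase I and its factors were called lower with a median of -0.98, and all 18 of RNA polymerase III, TFIIIB and TFIIIC with a median of -0.94. RRN7, a core initiation factor of RNA polymerase I, fell by 1.36 and TFC4, a TFIIIC subunit, by 1.39. Of 7 genes specific to RNA polymerase II 5 were called lower, 0 of them in every fit, with 3, 1, 2 and 0 calls without DMSO replicate 1, DMSO replicate 2, rapamycin replicate 1 and rapamycin replicate 2. RPB2, the second largest subunit, changed by -0.18 (adjusted p = 0.442) and stood higher than the median gene by 0.62. On the relative scale 2 of the 12 and 1 of the 18 were called lower, and 1 of the 7 higher. Of all genes 10.0% were called lower and 14.8% higher on that scale. Whether the polymerases differ from each other was not tested.

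The 15 largest falls by the rule for named genes were led by BTN2 and ECM22. BTN2, which sorts misfolded proteins into deposits, stood at 9.50 and 9.82 with DMSO and 7.24 and 7.23 with rapamycin and fell by 2.43 ± 0.23 (adjusted p = 1.2e-09), a 5.39-fold lower level. ECM22, a zinc-cluster activator of sterol synthesis genes, stood at 7.31 and 7.61 with DMSO and 5.05 and 5.33 with rapamycin and fell by 2.27 ± 0.22 (adjusted p = 2.4e-09). SLU7, a factor of the second splicing step, was at 7.49 and 7.77 with DMSO and 5.72 and 5.60 with rapamycin and fell by 1.97. The gap between the groups was wider than the gap between replicates in each of them. ANB1, the form of the translation factor eIF5A made at low oxygen, was at 8.71 and 8.76 with DMSO and 6.79 and 6.78 with rapamycin, 3.86-fold lower. NTG1, a glycosylase of base excision repair, was at 7.16 and 7.25 with DMSO and 5.21 and 5.37 with rapamycin and fell by 1.92. DBP2, a DEAD-box RNA helicase, was at 10.21 and 10.43 with DMSO and 8.39 and 8.43 with rapamycin and fell by 1.91. Both rapamycin arrays lay below both DMSO arrays for these 6 genes, but the groups were apart for 95.9% of all genes.

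MF(ALPHA)2, the minor alpha-factor gene, was the brightest of the 15 and stood at 12.53 and 12.69 with DMSO and 10.76 and 10.77 with rapamycin, so it fell by 1.85. ARE1, which esterifies sterols with fatty acids, was at 7.65 and 7.98 with DMSO and 6.03 and 5.92 with rapamycin and fell by 1.84. EFM3 and EFM2, methyltransferases that modify translation elongation factors, fell by 1.94 and 1.89. TRM13, a tRNA methyltransferase, fell by 1.81, and PTP3, a tyrosine phosphatase that acts on MAP kinases, by 1.80. PDR10, an ABC transporter, fell by 1.80, POF1 by 1.82 and BRE4, named for sensitivity to brefeldin A, by 1.80. All 15 also stood lower than the median gene, from a relative change of -1.62 for BTN2 to -0.99 for BRE4. In the arrays labelled steady-state the same 15 genes changed by -2.84 for ARE1 to -1.34 for POF1, in the same direction.

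The largest rises were led by EGO4, DDR2 and ARG1. EGO4 stood at 6.73 and 7.33 with DMSO and 9.39 and 9.49 with rapamycin and rose by 2.41 ± 0.23 (adjusted p = 1.2e-09), a 5.32-fold higher level. DDR2, a gene induced by DNA damage and many other stresses, was at 7.84 and 7.85 with DMSO and 10.16 and 10.03 with rapamycin and rose by 2.25 ± 0.21 (adjusted p = 1.2e-09). ARG1, argininosuccinate synthetase, was at 6.89 and 7.10 with DMSO and 9.14 and 9.30 with rapamycin and rose by 2.23 ± 0.21 (adjusted p = 1.7e-09). These 3 genes lay below the array median with DMSO and above it with rapamycin. CTT1, cytosolic catalase, was at 6.28 and 6.80 with DMSO and 8.47 and 8.67 with rapamycin and rose by 2.03. PGM2, the main phosphoglucomutase, was at 7.41 and 7.35 with DMSO and 9.12 and 9.36 with rapamycin and rose by 1.86. ARG3, ornithine carbamoyltransferase, was at 5.87 and 6.04 with DMSO and 7.81 and 7.70 with rapamycin and rose by 1.81. The groups did not overlap for these genes, as for 95.9% of all genes.

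The other 9 of the 15 largest rises were smaller. ALD3, a stress-induced aldehyde dehydrogenase, rose by 1.75 and FMP16, a mitochondrial protein, by 1.71. HSP26, a small heat shock protein that holds unfolded proteins, was at 9.60 and 9.64 with DMSO and 11.28 and 11.11 with rapamycin and rose by 1.58. GLK1, glucokinase, was at 9.53 and 9.74 with DMSO and 11.03 and 11.26 with rapamycin and rose by 1.51. HXK1, hexokinase 1, was at 8.93 and 9.05 with DMSO and 10.23 and 10.33 with rapamycin and rose by 1.29. STF2, known for its link to ATP synthase inhibition, rose by 1.44, GPH1, glycogen phosphorylase, by 1.31, RTC3 by 1.55 and RGI1, a gene of respiratory growth, by 1.28. All 15 stood higher than the median gene, from 2.08 for RGI1 to 3.22 for EGO4, and all 15 had a positive change in the arrays labelled steady-state, from 0.51 for ALD3 to 2.92 for HSP26.

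**Figure D2:**
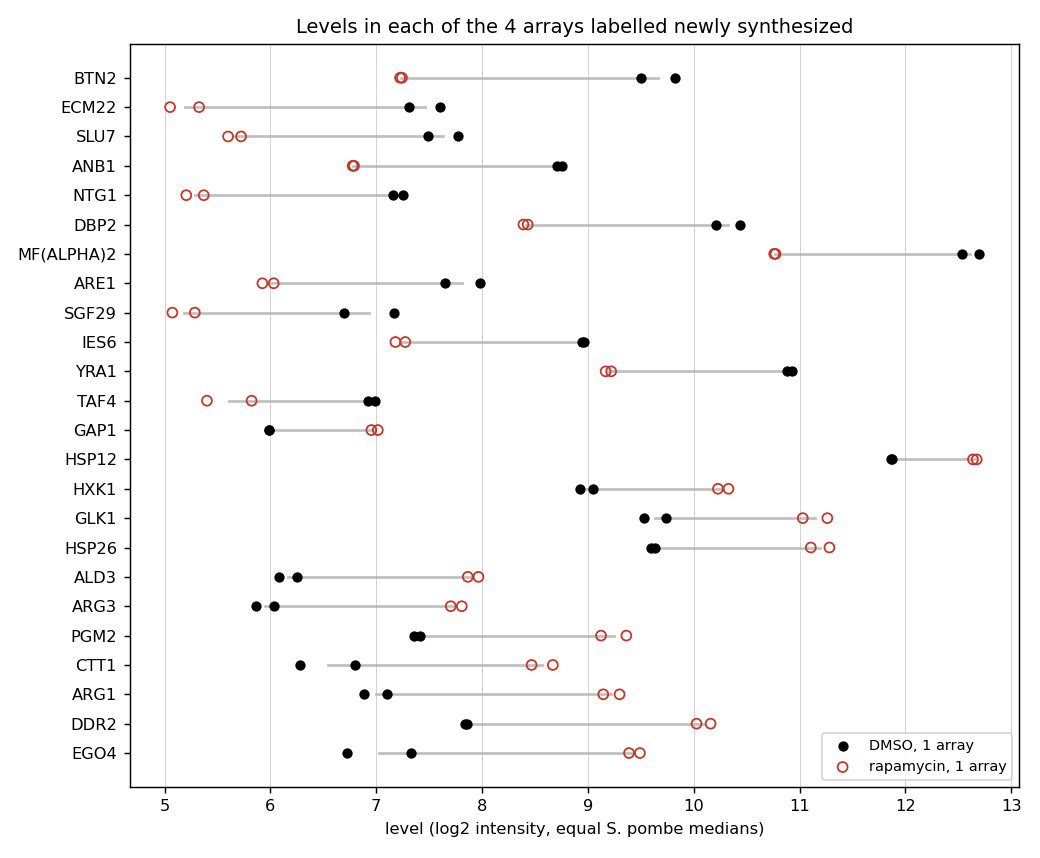
Levels (log2 intensity, equal S. pombe medians) of 24 genes in each of the 4 arrays labelled newly synthesized: filled points are DMSO arrays, open points rapamycin arrays, and grey lines join the group means. Both rapamycin arrays lie on 1 side of both DMSO arrays for the 24 genes, as they do for 95.9% of all tested genes.

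Genes of the general stress response, most of which are driven by Msn2 and Msn4 when protein kinase A is low, had the highest median of the lists. Of 27 tested members 19 were called higher against 1.79% of all genes, and 0 lower, with a median of 0.85. In every fit 17 were higher, against 0.895% of all genes. HSP12, a membrane-stabilising stress protein, was at 11.87 and 11.87 with DMSO and 12.64 and 12.67 with rapamycin and rose by 0.79 ± 0.22 (adjusted p = 0.00202). TRX2, a cytosolic thioredoxin and the brightest member, changed by -0.02 (adjusted p = 0.922), and SYM1, the lowest member, by -0.41 (adjusted p = 0.0923). Relative to the median gene 26 of 27 were called higher, against 14.8% of all genes. All of these kept the call in every fit, against 6.38% of all genes. The median over members was 0.51 in the arrays labelled steady-state.

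Trehalose and glycogen, the storage carbohydrates that yeast makes under stress, showed both directions, where 79.4% of all genes were called lower and 1.79% higher. Of 16 genes 9 were called higher and 4 lower, with a median of 0.60. In every fit 5 and 1 kept these calls, against 0.895% and 50.5% of all genes. The lower calls numbered 1 without DMSO replicate 2 and 1 without rapamycin replicate 1. TSL1, a regulatory subunit of trehalose synthase, was at 8.55 and 8.62 with DMSO and 9.81 and 9.83 with rapamycin and rose by 1.23. PGM2 and GPH1, described with the largest rises, also belong here. TPS1, the catalytic subunit, changed by 0.68 (adjusted p = 0.00525), a call lost without DMSO replicate 1 (adjusted p = 0.118) or rapamycin replicate 1 (adjusted p = 0.0845). PGM1, the minor phosphoglucomutase, was the lowest member and fell by 0.76. UGP1, which makes UDP-glucose, changed by 0.52 (adjusted p = 0.025, up to 0.134 with an array left out) and stood higher than the median gene by 1.33.

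Of 30 cytosolic chaperone and co-chaperone genes 21 were called lower and 1 higher, against 79.4% and 1.79% of all genes. Fewer were lower with any 1 array left out, as over all genes. With the loess spike-in correction 13 were lower, where 2881 of all 4359 tested genes were. CNS1, a co-chaperone of Hsp90, fell by 1.40. SSA4, the stress-inducible Hsp70, was at 7.64 and 7.77 with DMSO and 8.81 and 8.70 with rapamycin and rose by 1.05 ± 0.23 (adjusted p = 0.00019). In the arrays labelled steady-state SSA4 changed by -0.01. HSP42, a small heat shock protein that gathers aggregates together with Btn2, rose by 0.78 while BTN2 fell, and CUR1, the paralog of BTN2, fell by 1.57. HSP104, which pulls proteins out of aggregates, changed by 0.28 (adjusted p = 0.218) and stood higher than the median gene by 1.09. Genes of the unfolded protein response and folding in the endoplasmic reticulum were lower in 27 of 31 cases, 16 without DMSO replicate 2, with a median of -0.80. DER1, which extracts misfolded proteins from that compartment, fell by 1.38.

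Making ribosomes takes ribosomal proteins, assembly factors and RNA polymerases I and III. Of 127 cytosolic ribosomal protein genes 62 were called lower against 79.4% of all genes, and 8 in every fit against 50.5%. The count was 20, 11, 13 and 17 without DMSO replicate 1, DMSO replicate 2, rapamycin replicate 1 and rapamycin replicate 2, 12 with the loess spike-in correction and 7 as deposited. Their median change was -0.46, from -1.33 to 0.00, and their median levels were 12.99 and 13.03 with DMSO and 12.49 and 12.54 with rapamycin. These are among the brightest genes of the arrays: 125 of them lie in the brightest 20%, where the other 747 genes had a median of -0.60. On the relative scale 17 were called higher, against 14.8% of all genes, with 5, 3, 3 and 6 in the same 4 fits and 2 after quantile normalization, and the list's relative median of 0.34 turned to -0.05 under quantile normalization.

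Single ribosomal protein genes varied around that value. RPS31, made as a fusion with ubiquitin, stood at 13.77 and 13.73 with DMSO and 13.34 and 13.42 with rapamycin and changed by -0.37 (adjusted p = 0.12). RPS9A, the minor copy of its pair, was at 10.55 and 10.46 with DMSO and 9.38 and 8.97 with rapamycin and fell by 1.33 ± 0.22 (adjusted p = 9.3e-06), the lowest change of the list. RPL9B had rapamycin levels on both sides of its DMSO levels, 11.21 and 11.18 with DMSO and 11.33 and 11.07 with rapamycin, and stood higher than the median gene by 0.81. RPL13A, whose product carries the FKBP12 anchor in this strain, was at 8.49 and 8.62 with DMSO and 7.72 and 7.43 with rapamycin and fell by 0.98 (adjusted p = 0.00023).

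Assembly factor genes were nearly all lower, where 79.4% of all genes were called lower. Of 112 ribosome assembly genes 111 were called lower, 100 in every fit against 50.5% of all genes, with a median of -1.04. Against the median gene 26 were called lower and 0 higher, against 10.0% and 14.8% of all genes, but 4 kept the call in every fit, against 2.41% of all genes. Fewer were called with any 1 array left out, as over all genes. The count of lower calls was 53 with 40% of genes filtered out and 40 after quantile normalization. DBP2, described with the largest falls, was the lowest. GAR1, a core protein of H/ACA snoRNPs that guide pseudouridine formation, fell by 0.88, and NHP2 of the same particles changed by -0.72 (adjusted p = 0.00352, up to 0.0668 with an array left out). ESF1 changed by -0.45 (adjusted p = 0.0581). Mitochondrial ribosomal protein genes were called lower in 55 of 67 cases, 20 in every fit against 50.5% of all genes, with a median of -0.61. The count was 25, 31 and 27 without DMSO replicate 2, rapamycin replicate 1 and rapamycin replicate 2, and 31 with the loess spike-in correction. MRPL1 fell by 1.04 and MRPL16 changed by -0.22 (adjusted p = 0.329).

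Transfer RNA genes' helpers and translation factors were mostly lower too, where 79.4% of all genes were called lower. All 42 tested genes of tRNA modification and processing were called lower, 39 in every fit against 50.5% of all genes. Their median of -1.11 was the lowest of the lists with over 10 tested genes. On the relative scale 16 were called lower, against 10.0% of all genes, and 3 kept it in every fit, against 2.41%. Fewer were called with any 1 array left out, as over all genes. SEN2, a catalytic subunit of the tRNA splicing endonuclease, fell by 1.64, and LHP1, which binds the ends of new RNA polymerase III transcripts, by 1.05. Aminoacyl-tRNA synthetase genes were called lower in 19 of 21 cases, 10 without DMSO replicate 2, 11 without rapamycin replicate 1 and 12 with the loess spike-in correction. WRS1, the tryptophan enzyme, fell by 1.17 and HTS1, the histidine enzyme, changed by -0.37 (adjusted p = 0.103). Translation factor genes were lower in 29 of 35 cases with a median of -0.84. TEF2, elongation factor 1A, whose probe set does not separate it from its twin TEF1, was at 13.59 and 13.73 with DMSO and 13.26 and 13.36 with rapamycin and changed by -0.34 (adjusted p = 0.146).

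All 59 tested spliceosome genes were called lower, 42 in every fit against 50.5% of all genes, with a median of -0.99. On the relative scale 12 were called lower and 0 higher, against 10.0% and 14.8% of all genes, with 6, 4 and 5 lower calls without DMSO replicate 1, DMSO replicate 2 and rapamycin replicate 2. PRP43, a helicase of spliceosome release, fell by 0.84, and PRP8, the largest core protein of the spliceosome, changed by -0.48 (adjusted p = 0.0393, up to 0.172 with an array left out). For comparison, 79.4% of all tested genes were called lower in absolute level. YRA1, an mRNA export adaptor, was at 10.93 and 10.88 with DMSO and 9.22 and 9.17 with rapamycin and fell by 1.71 ± 0.22 (adjusted p = 4.1e-07). SYC1, of the cleavage and polyadenylation factor, fell by 1.44 and stood lower than the median gene by 0.63. RRP6, the nuclear exosome's nuclease, fell by 1.23. DCS2, an inhibitor of the scavenger decapping enzyme, had overlapping groups at 6.32 and 7.01 with DMSO and 7.20 and 6.94 with rapamycin and stood higher than the median gene by 1.21.

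Chromatin genes were lower, and most histone genes were not called, where 79.4% of all genes were called lower. Among 45 remodeler genes 43 were called lower, with a median of -0.82. Fewer were lower with any 1 array left out, as over all genes. IES6, a subunit of INO80, was at 8.96 and 8.95 with DMSO and 7.18 and 7.27 with rapamycin and fell by 1.73 ± 0.21 (adjusted p = 2e-07), and it stood lower than the median gene by 0.92. Of 10 histone genes 2 were called lower, 0 in every fit (0 without DMSO replicate 2 and 0 without rapamycin replicate 2), with a median of -0.08, which was 0.30 with the values as deposited and 0.04 with a loess spike-in correction. 7 of them were called higher than the median gene, 6 in every fit, against 14.8% and 6.38% of all genes, and 4 after quantile normalization. HTA1, a histone H2A gene, stood at 12.81 and 12.90 with DMSO and 12.73 and 12.76 with rapamycin and HHT2, a histone H3 gene, at 11.27 and 11.38 with DMSO and 11.82 and 11.61 with rapamycin, with changes of -0.12 (adjusted p = 0.604) and 0.39 (adjusted p = 0.0913). The centromere histone gene CSE4 changed by -0.60 (adjusted p = 0.0152, up to 0.113 with an array left out).

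**Figure D3:**
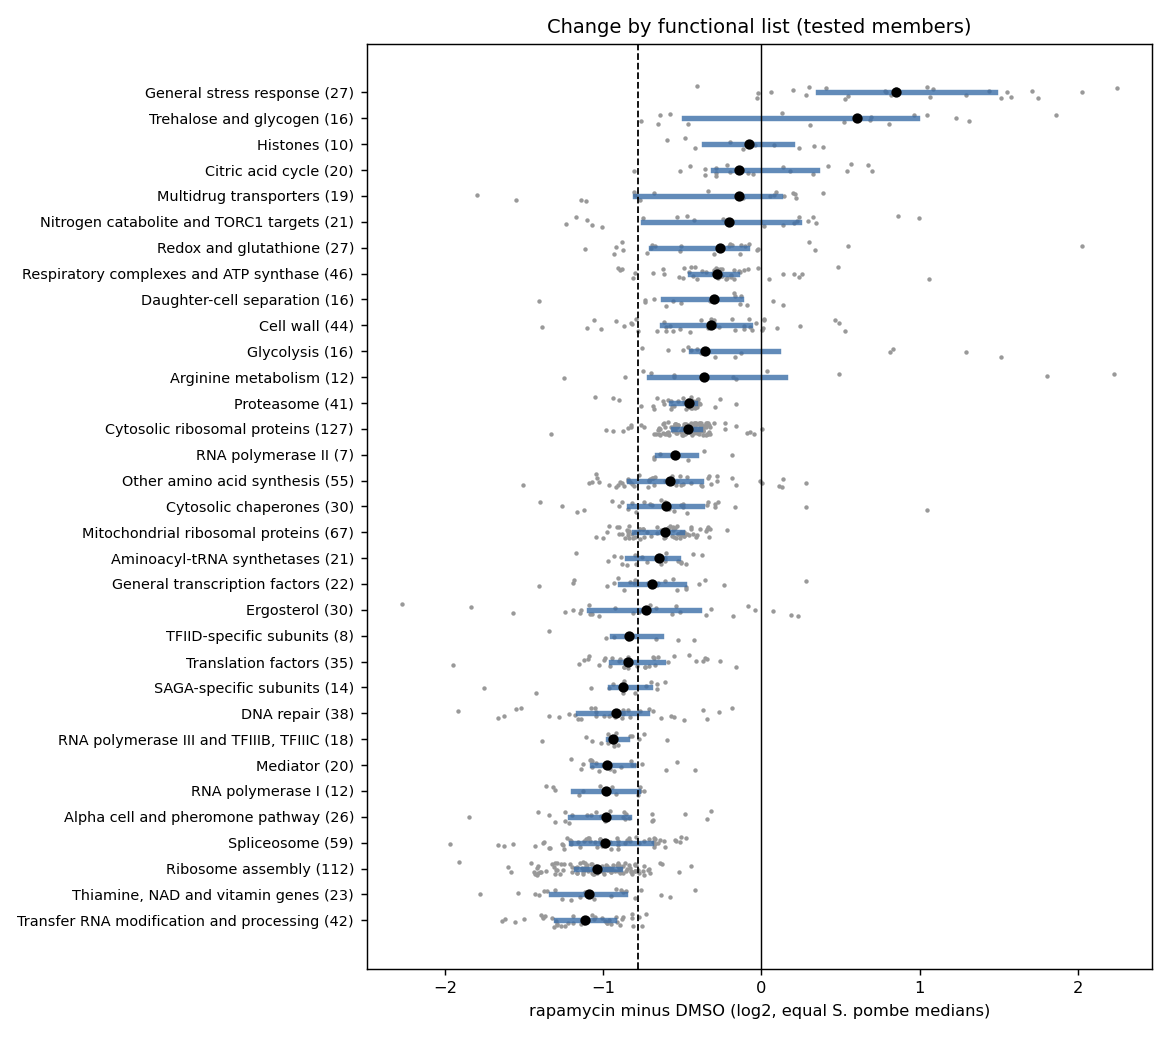
Changes of the tested members of 33 functional lists (rapamycin minus DMSO, log2, equal S. pombe medians; numbers of tested members in parentheses). Grey points are genes, black points list medians, blue bars quartiles, the solid line 0 and the dashed line the median of all genes (-0.78). General stress and storage carbohydrate genes have medians above 0; with the values as deposited the medians of histone, citric acid cycle, multidrug, nitrogen, redox, respiratory, daughter-cell separation, cell wall, glycolysis and arginine genes also lie above 0.

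Genes of carbon metabolism held several of the genes that rose, where 79.4% of all genes were called lower and 1.79% higher. Of 16 glycolysis genes 4 were called higher and 4 lower, and 3 and 0 kept these calls in every fit, against 0.895% and 50.5% of all genes. The lower calls numbered 1, 1, 0 and 1 without DMSO replicate 1, DMSO replicate 2, rapamycin replicate 1 and rapamycin replicate 2, and 1 with the loess spike-in correction. The median was -0.35, or 0.03 with the values as deposited. GLK1 and HXK1, which phosphorylate glucose, and ENO1, the minor enolase, rose. ENO1 stood at 11.22 and 11.20 with DMSO and 12.03 and 12.06 with rapamycin. The abundant isozymes did not rise: HXK2 changed by -0.50 (adjusted p = 0.0332, up to 0.143 with an array left out) and ENO2 by -0.29 (adjusted p = 0.195). TPI1, triose phosphate isomerase, was at 13.67 and 13.74 with DMSO and 13.30 and 13.43 with rapamycin and changed by -0.34 (adjusted p = 0.149). In the pentose phosphate pathway SOL4, a 6-phosphogluconolactonase-like protein, was at 7.10 and 7.39 with DMSO and 8.31 and 8.39 with rapamycin and rose by 1.10, and RKI1, ribose-5-phosphate isomerase, fell by 1.60.

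Few mitochondrial energy genes were called in absolute level, where 79.4% of all genes were called lower. In the citric acid cycle 4 of 20 genes were called higher and 2 lower, with 0 and 1 in every fit, against 0.895% and 50.5% of all genes. Without DMSO replicate 1, DMSO replicate 2, rapamycin replicate 1 and rapamycin replicate 2 there were 1, 2, 2 and 0 higher calls and 1 lower call each. CIT1, citrate synthase, changed by 0.70 (adjusted p = 0.00382, adjusted p = 0.0614 without rapamycin replicate 2), and ACO1, aconitase, by 0.67 (adjusted p = 0.0051, up to 0.0747 with an array left out). MDH3, the peroxisomal malate dehydrogenase, fell by 0.81. On the relative scale 17 of 20 were called higher, 8 in every fit, against 14.8% and 6.38% of all genes, and 9, 10 and 11 without DMSO replicate 1, DMSO replicate 2 and rapamycin replicate 1. Of 46 nuclear genes of the respiratory complexes and ATP synthase 10 were called lower (5 without DMSO replicate 2 and 5 without rapamycin replicate 2) and 2 higher (1 without each array). 31 were called higher than the median gene, 12 in every fit, with 17, 15 and 19 without DMSO replicate 1, DMSO replicate 2 and rapamycin replicate 1 and 14 after quantile normalization. CYC7, the minor cytochrome c, was at 7.01 and 6.83 with DMSO and 7.95 and 8.02 with rapamycin and rose by 1.06, and HAP3, a subunit of the activator of respiratory genes, fell by 0.91. The list medians, -0.14 and -0.28, were 0.24 and 0.10 with the values as deposited.

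Sugar uptake and fermentation genes went both ways. Among 8 tested genes of hexose transport 3 were called lower and 1 higher, against 79.4% and 1.79% of all genes. RGT1, their repressor, fell by 1.20, and HXT7, a high-affinity transporter whose probe set does not separate it from near-identical copies, was at 9.20 and 9.47 with DMSO and 10.29 and 10.40 with rapamycin and rose by 1.01. HXT3, a low-affinity transporter, changed by -0.24 (adjusted p = 0.295). Of 17 genes of ethanol and acetate metabolism 9 were called lower (2 without DMSO replicate 2, 5 without rapamycin replicate 1 and 5 with the loess spike-in correction) and ALD3 alone was higher. ACS1, acetyl-CoA synthetase, fell by 1.11, and ADH1, the fermentative alcohol dehydrogenase, changed by -0.30 (adjusted p = 0.199).

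In nitrogen metabolism the arginine genes diverged from each other, where 79.4% of all genes were called lower and 1.79% higher. Of 12 tested genes 6 were called lower (3 without DMSO replicate 2) and 3 higher, and 2, ARG1 and ARG3, rose. ARG4, argininosuccinate lyase, changed by 0.49 (adjusted p = 0.041, up to 0.234 with an array left out) and stood higher than the median gene by 1.30. CAR1, arginase, which breaks arginine down, changed by -0.18 (adjusted p = 0.436). ORT1, the mitochondrial ornithine transporter, fell by 1.24. The list's median was -0.36, or 0.02 with the values as deposited.

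Of 55 tested genes of other amino acid synthesis 39 were called lower, with 21, 25 and 25 without DMSO replicate 2, rapamycin replicate 1 and rapamycin replicate 2, and 0 higher, where 79.4% and 1.79% of all genes were. LYS4, homoaconitase, fell by 1.51. ASN1, asparagine synthetase, was at 11.96 and 12.20 with DMSO and 12.15 and 12.28 with rapamycin, changed by 0.14 (adjusted p = 0.556) and stood higher than the median gene by 0.94, as did SER3, a 3-phosphoglycerate dehydrogenase, by 1.09. In sulfate assimilation MET22, which removes the by-product of sulfate activation, fell by 1.63, and MUP1, the methionine permease, changed by 0.14 (adjusted p = 0.543).

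Targets of nitrogen catabolite repression and TORC1 were called lower in 8 of 21 cases (5 without DMSO replicate 2 and 5 without rapamycin replicate 1) and higher in 2. 12 were called higher than the median gene and all 12 kept the call in every fit, against 14.8% and 6.38% of all genes. GAP1, the general amino acid permease, was at 5.99 and 5.99 with DMSO and 6.95 and 7.01 with rapamycin and rose by 1.00 ± 0.21 (adjusted p = 0.00015). GDH1, glutamate dehydrogenase, was at 10.71 and 10.81 with DMSO and 11.15 and 11.06 with rapamycin and changed by 0.34 (adjusted p = 0.126). GZF3, a GATA repressor of these genes, fell by 1.23. The median of the list, -0.21, was 0.17 with the values as deposited. HIP1, the histidine permease, fell by 1.46 and stood lower than the median gene by 0.65. Of 18 genes of the TOR complexes and their partners 16 were called lower, where 79.4% of all genes were. GTR1, a GTPase upstream of TORC1, fell by 1.42, and TOR1 itself changed by -0.60 (adjusted p = 0.0139), a call lost without DMSO replicate 2 (adjusted p = 0.144) or rapamycin replicate 2 (adjusted p = 0.148). Of 16 autophagy genes 13 were called lower. ATG8, which coats the autophagosome, changed by 0.19 (adjusted p = 0.429) and stood higher than the median gene by 0.99.

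Membrane and transporter genes spanned a wide range, where 79.4% of all genes were called lower. Of 19 multidrug transporter and regulator genes 8 were called lower and 0 higher, while 11 were called higher than the median gene, 9 in every fit, against 14.8% and 6.38% of all genes. PDR5, the main drug efflux pump, stood at 10.66 and 10.98 with DMSO and 10.92 and 11.01 with rapamycin and changed by 0.15 (adjusted p = 0.547), and PDR16, a lipid transfer protein of the same regulon, changed by 0.39 (adjusted p = 0.0933). In the arrays labelled steady-state PDR5 changed by -0.72. PMA1, the plasma membrane proton pump, was at 11.04 and 11.31 with DMSO and 11.09 and 11.15 with rapamycin and stood higher than the median gene by 0.75. TRK2, a potassium transporter, fell by 1.65. Among 23 iron regulon genes 13 were called lower (8 without DMSO replicate 2), CTH1 fell by 1.37, and FIT2, a cell wall mannoprotein that retains siderophores, changed by 0.66 (adjusted p = 0.00607, up to 0.0814 with an array left out). FET3, the iron oxidase, was at 10.61 and 10.85 with DMSO and 10.69 and 10.78 with rapamycin. In the phosphate regulon PHO3, an acid phosphatase, fell by 1.23 and PHO84, the high-affinity transporter, changed by -0.37 (adjusted p = 0.119).

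Lipid genes held ECM22 and ARE1 at one end. Of 30 ergosterol genes 22 were called lower and 0 higher, where 79.4% and 1.79% of all genes were, with a median of -0.73. ERG4, which catalyses the last step, changed by 0.23 (adjusted p = 0.329) and stood higher than the median gene by 1.04. UPC2, the paralog of ECM22, was at 6.74 and 7.43 with DMSO and 5.32 and 5.71 with rapamycin and fell by 1.57. PCT1, which makes CDP-choline for phosphatidylcholine, fell by 1.57. Of 36 fatty acid and phospholipid synthesis genes 30 were called lower, 15 without DMSO replicate 2 and 19 without rapamycin replicate 1. FAS2, a fatty acid synthase subunit, changed by -0.15 (adjusted p = 0.519). Among genes of fatty acid oxidation and peroxisomes 19 of 23 were lower, and PEX31 fell by 1.52.

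Cell wall genes were largely not called in absolute level, where 79.4% of all genes were called lower. Of 44 tested members 18 were called lower (10 without DMSO replicate 2, 9 without rapamycin replicate 1 and 11 with the loess spike-in correction) and 3 higher, none of these in a fit with any 1 array left out. 25 were called higher than the median gene, 15 in every fit, against 14.8% and 6.38% of all genes. After quantile normalization 12 were, where 399 of all 4359 tested genes were. CCW12, the brightest gene of the arrays, stood at 13.70 and 13.79 with DMSO and 13.37 and 13.48 with rapamycin and changed by -0.32 (adjusted p = 0.169). MKC7, a protease of the cell surface, fell by 1.38, and SPI1 changed by 0.53 (adjusted p = 0.0254, up to 0.186 with an array left out). The list's median was -0.32, or 0.06 with the values as deposited. In cell wall integrity signalling BCK1, a MAP kinase kinase kinase, fell by 1.28.

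Cell cycle lists are read against the 79.4% of all genes called lower. Of 52 genes of S phase and replication 44 were called lower, MCM3, of the replicative helicase, fell by 1.61, and POL30, the sliding clamp PCNA, changed by 0.07 (adjusted p = 0.774) and stood higher than the median gene by 0.87. DNA repair genes were lower in 34 of 38 cases, 4 of which also stood lower than the median gene, where 2.41% of all genes did. Of 29 G2 and M phase genes 22 were lower and FKH2, a forkhead activator of that phase, fell by 1.41. APC11, the RING subunit of the anaphase-promoting complex, fell by 1.57 and stood lower than the median gene by 0.76. Of 13 G1 genes 6 were called lower (2 without DMSO replicate 2 and 2 without rapamycin replicate 1). CDC28, the main cyclin-dependent kinase, fell by 0.88, and PCL1, a G1 cyclin, changed by 0.56 (adjusted p = 0.016, up to 0.107 with an array left out). MCD1, the cohesin subunit cut at anaphase, changed by 0.25 (adjusted p = 0.29). Daughter-specific genes EGT2 and CTS1, which help to part mother from daughter, stood higher than the median gene by 0.94 and 0.71, with absolute changes of 0.13 (adjusted p = 0.566) and -0.09 (adjusted p = 0.684).

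Of 26 tested genes of alpha cells and the pheromone pathway 24 were called lower, 20 in every fit, with a median of -0.98. Of all tested genes 79.4% were called lower, and 50.5% in every fit. STE3, the receptor for a-factor, fell by 1.21 ± 0.22 (adjusted p = 3.4e-05). MF(ALPHA)1, the major pheromone gene, changed by -0.48 (adjusted p = 0.037, up to 0.223 with an array left out), while MF(ALPHA)2 fell by 1.85. STE18, the gamma subunit of the pheromone G protein, changed by -0.32 (adjusted p = 0.203).

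Of 41 proteasome genes 21 were called lower, where 79.4% of all genes were, with 11, 4, 6 and 7 without DMSO replicate 1, DMSO replicate 2, rapamycin replicate 1 and rapamycin replicate 2, 7 with the loess spike-in correction, and a median of -0.46. 17 were called higher than the median gene, but 0 in every fit, against 14.8% and 6.38% of all genes. After quantile normalization 1 was. RPN14, an assembly chaperone of the base, fell by 1.05, and RPT2, an ATPase subunit, changed by -0.16 (adjusted p = 0.516). CDC34, a ubiquitin-conjugating enzyme, fell by 1.19. Thiamine, NAD and vitamin genes were called lower in 22 of 23 cases with a median of -1.09, and 7 were lower than the median gene, 4 without DMSO replicate 2 and 4 after quantile normalization, where 10.0% of all genes were. THI20, of thiamine synthesis, fell by 1.78 and stood lower than the median gene by 0.97. BAS1, an activator of purine and histidine genes, fell by 1.51, and URK1, uridine kinase, by 1.45. Among redox genes, 11 of 27 were lower (6 without DMSO replicate 2) and CTT1 rose, and TSA1, the main peroxiredoxin, changed by -0.10 (adjusted p = 0.652).

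**Figure D4:**
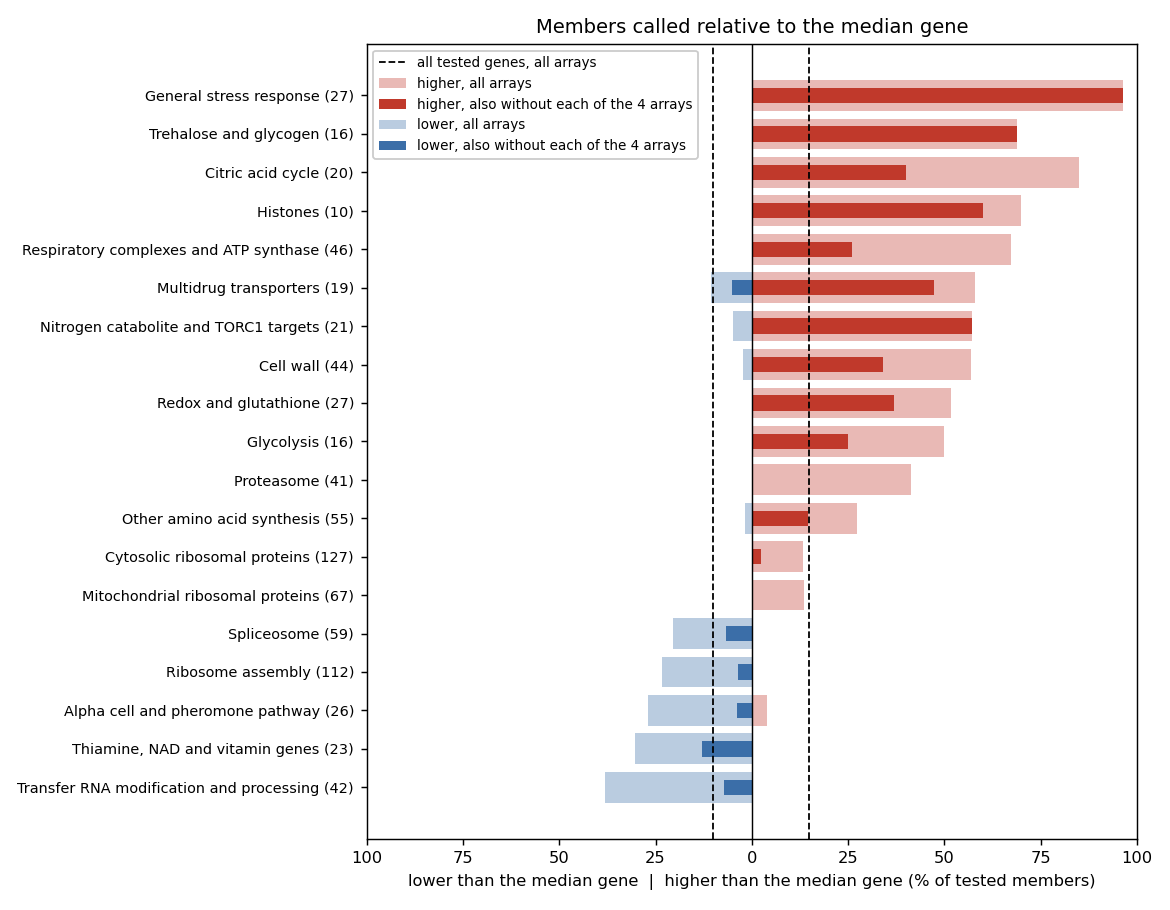
Percent of the tested members of 19 lists called higher (right) or lower (left) than the median gene, with all arrays (pale bars) and also without each of the 4 arrays in turn (dark bars). Dashed lines mark the share of all tested genes with all arrays, 14.8% higher and 10.0% lower. Of 27 stress genes 26 are called higher in every fit, and of 41 proteasome genes 0, against 6.38% of all tested genes.

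Some genes not called in absolute level stood higher than the median gene. There were 200 genes that were not called in absolute level and stood higher than the median gene in every fit. Apart from those already described they include UFD2, a ubiquitin chain elongation factor, at 0.78, PEP4, the vacuolar protease A, at 1.10, and ISU2, an iron-sulfur scaffold, at 0.69. FCY2, a purine and cytosine permease, stood at 0.63, PMP1, a small regulator of the proton pump, at 0.95, and WSC4, a cell surface sensor protein, at 0.94. PEP4 was at 11.17 and 11.38 with DMSO and 11.52 and 11.62 with rapamycin and WSC4 at 8.36 and 8.58 with DMSO and 8.76 and 8.45 with rapamycin. None of these genes passed the test in absolute level. After quantile normalization the relative call was lost for FCY2 (adjusted p = 0.203), NCB2 (0.0906), HTA1 (0.0852), PMP1 (0.0861), RPL9B (0.079), ISU2 (0.0703), PMA1 (0.0623) and CTS1 (0.0513), with the direction kept.

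Members of some paralog pairs changed by different amounts. The pairs given here were chosen after their values were seen, each gene has its own probe set, and the difference within a pair was not tested. PGM2 rose by 1.86 and its sister PGM1 fell by 0.76. SOL4 rose by 1.10 and SOL3 fell by 0.94, with levels of 10.04 and 10.04 with DMSO and 9.20 and 9.01 with rapamycin. TSL1 rose by 1.23, while TPS3, the other regulatory subunit of trehalose synthase, changed by -0.58 (adjusted p = 0.014, up to 0.113 with an array left out). HXK1 and ENO1 rose, and their more abundant partners HXK2 and ENO2 did not. PGM2, HXK1 and TSL1 are known to be induced when glucose runs low or under stress.

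For the remaining pairs the values are as follows. ANB1 fell by 1.95, and HYP2, the main eIF5A gene of aerobic cells, was at 12.87 and 12.89 with DMSO and 12.76 and 12.68 with rapamycin and changed by -0.16 (adjusted p = 0.47). ARE1 fell by 1.84, and ARE2, the other sterol acyltransferase, had overlapping groups at 7.15 and 6.87 with DMSO and 7.18 and 6.99 with rapamycin. PDR10 fell by 1.80 and PDR15, a related ABC transporter, changed by -0.12 (adjusted p = 0.608). RAS1 fell by 1.63 and RAS2, the main Ras gene of growing cells, changed by -0.37 (adjusted p = 0.117). BTN2 fell by 2.43 and CUR1 fell by 1.57. ECM22 fell by 2.27 and UPC2 fell by 1.57, so both members of these pairs were lower. NTG1 fell by 1.92 and NTG2 changed by -0.92 (adjusted p = 0.00072, adjusted p = 0.0552 without DMSO replicate 2). CYC7 rose by 1.06 and CYC1, the main cytochrome c, was at 9.41 and 9.56 with DMSO and 9.71 and 9.73 with rapamycin and changed by 0.24 (adjusted p = 0.298).

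**Figure D5:**
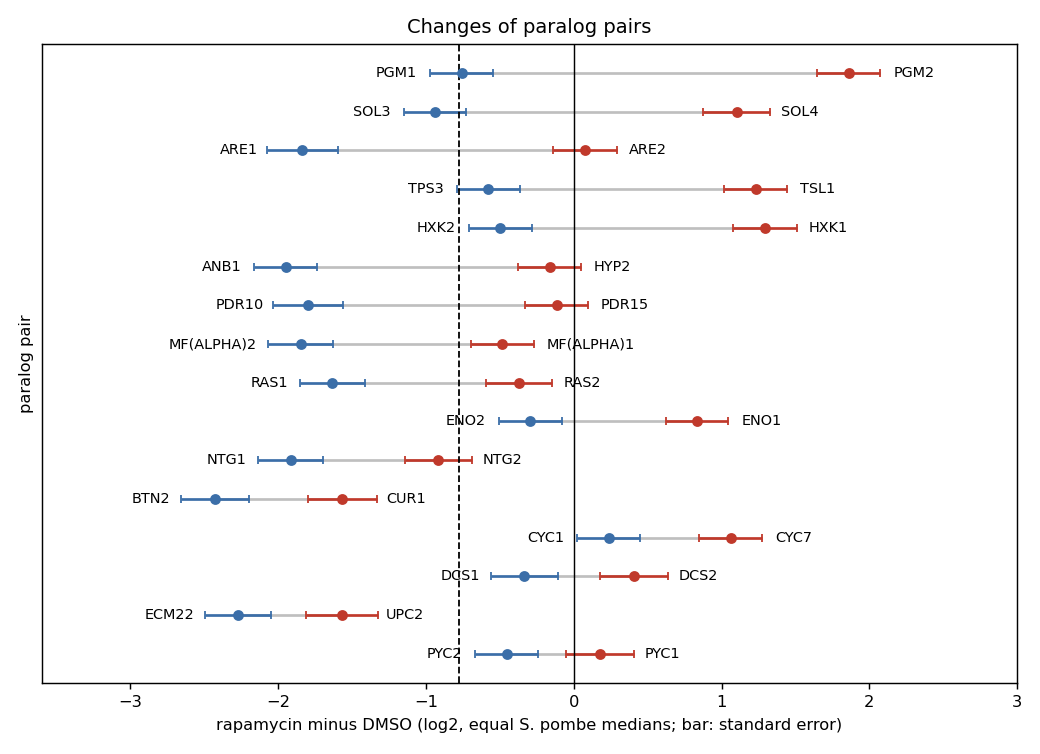
Changes (rapamycin minus DMSO, log2, equal S. pombe medians) of 16 paralog pairs with a gene-specific probe set for each member, ordered by the gap between members; bars are standard errors, the solid line is 0 and the dashed line the median gene. PGM2, SOL4, TSL1, HXK1 and ENO1 lie above 0 while their partners lie below it.

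Level before treatment went with the size of the change. In 5 equal groups of genes by DMSO level, from dimmest to brightest, the median change was -0.79, -0.88, -0.83, -0.77 and -0.56, and the share called lower was 80.7%, 87.0%, 84.7%, 80.4% and 64.2%. In the brightest group 25% were called higher than the median gene, against 14.8% of all genes. The 10 brightest genes were CCW12, RPS31, TPI1, TEF2, RPS17A, GPM1, TDH3, RPS21B, RPS6B and RPS8A, with changes between -0.46 for TDH3 and -0.32 for CCW12, each smaller in size than that of the median gene. TDH3, glyceraldehyde-3-phosphate dehydrogenase, was at 13.63 and 13.73 with DMSO and 13.12 and 13.32 with rapamycin (adjusted p = 0.0449, up to 0.272 with an array left out). Signal at the top of an array's range can be compressed, and its part in this was not tested. By chromosome the median change ran from -0.74 to -0.90, and by gene length it was -0.67 in the shortest 20% and between -0.80 and -0.78 in the others.

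The Taf4-labelled steady-state arrays, whose tagged subunit is uncertain for all but rapamycin replicate 2, were also mostly lower with rapamycin. There the median gene changed by -1.17, with 3785 genes (86.8%) called lower and 62 (1.42%) higher. The difference between the 2 changes was tested in the same fit. It was called in 6 genes (0.138%) in which the change labelled newly synthesized was the lower one and in 52 (1.19%) in which it was the higher one. With equal S. cerevisiae medians these counts were 35 and 19. Leaving out 1 of the 8 arrays moved them widely: both were 0 without steady-state DMSO replicate 2 and without steady-state rapamycin replicate 1, and 1097 genes were called the higher way without steady-state rapamycin replicate 2. HAC1, the activator of the unfolded protein response, changed by -0.87 here and by 0.51 in the arrays labelled steady-state, and YRA1 by -1.71 and -0.42. SLX5, of a SUMO-targeted ubiquitin ligase, changed by -0.65 and -2.35. HSP26 rose by 1.58 here and changed by 2.92 there. Of the stress list, 3 of 27 members had a called difference.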

How the data were processed

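Affymetrix Yeast Genome 2.0 arrays were processed by the authors to linear signal intensity per probe set with Expression Console 1.4.1, per the submitters' processing notes. The deposited intensity columns have a common trimmed mean per label set. The shift to the S. pombe probe sets was computed here. Probe sets were named through the platform annotation updated with RefSeq R64 names, and for a gene with several probe sets the one with the highest mean was used. Intensities were taken to log2, each array was shifted to an equal S. pombe median (absolute) or to an equal median of tested S. cerevisiae genes (relative), and the lowest 20% of genes were left out. lmFit and eBayes of limma 3.58.1 in R 4.3.3 were run on the 8 Taf4-labelled arrays with Benjamini-Hochberg adjustment, and tested on simulated data. The precision is limited by 2 arrays a group. Named genes were the 15 largest falls and rises, the 2 brightest, lowest and highest member of each list, the 10 brightest genes, the strain genes and the 4 largest differences each way. Others that are named, such as paralogs and genes standing higher than the median gene, were chosen after their values were seen. The members and lists were chosen with earlier results of these data known. Other scalings, filters, probe set rules and left-out arrays were tried. Promoter, intron and protein sequences were not used here.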

Additional observations from a re-analysis of the deposited data

Results flagged for a closer look

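For 8 genes the change in the arrays labelled newly synthesized differed from that in the arrays labelled steady-state, by limma's test of the difference itself with Benjamini-Hochberg adjustment. They are the 4 largest each way that passed. HAC1 changed by -0.87 and 0.51, a difference of -1.38 (adjusted p = 0.0207), and EFG1, of ribosome assembly, had a difference of -1.35. HSP26 changed by 1.58 and 2.92, a difference of -1.34, and YRA1 had one of -1.28. SLX5 had a difference of 1.70 (adjusted p = 0.0207), APL5, of a vesicle adaptor, 1.59, MNN5, a mannosyltransferase, 1.59, and GCD10, a tRNA methyltransferase subunit, 1.54. All 8 calls were lost without steady-state DMSO replicate 2 and without steady-state rapamycin replicate 1. The difference was lost in 2 of 8 such fits for SLX5 and in up to 6 for HAC1 and YRA1. With equal S. cerevisiae medians the calls of MNN5 (adjusted p = 0.0578) and GCD10 (adjusted p = 0.113) were lost. With the loess spike-in correction the differences of EFG1 and YRA1 were -0.59 and -0.58.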

How the results depend on the processing

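The absolute scale rested on the S. pombe shift. With the values as deposited the change of the array median was -0.43 and that of the median gene -0.40, with 2114 genes lower and 188 higher, and TRX2 turned from -0.02 to 0.36. With a loess spike-in correction the array median changed by -0.68 and the median gene by -0.67. With 40% of genes filtered out the array median changed by -0.70, and with 50 added before the log the median gene changed by -0.63. Relative to the median gene, 398 genes were higher with 40% filtered out and 399 after quantile normalization. Leaving out 1 array gave 2382 to 3083 genes lower and 46 to 56 higher in absolute level, and 162 to 259 lower and 337 to 389 higher relative to the median gene. The difference between the labels was called in 2479 genes the higher way with loess, in 22 and 88 (lower and higher) as deposited, in 35 and 19 with equal S. cerevisiae medians, and in 0 to 37 and 0 to 1097 with 1 array left out. The cause of these shifts was not tested. Of the named genes said to have fallen or risen, none lost its call under another scaling, filter or probe set rule in which it was tested. The replicate numbers were not shown to pair the arrays. Across the tested genes, replicate 1 minus replicate 2 with DMSO and the same difference with rapamycin had a correlation of 0.130. With the replicate block 3859 genes were lower and 93 higher in absolute level, 492 and 710 relative to the median gene, and 70 and 1554 for the difference. With only the 4 arrays labelled newly synthesized in the fit, 3884 genes were lower and 95 higher in absolute level. Relative to the median gene, 627 were lower and 926 higher in that fit. The planned promoter motif, TATA box and intron alternatives were not run. 2 arrays a group limit the precision.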
